A study of Mus musculus with 6 samples.

Results

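The genes Rela, Relb, Rel, Nfkb1 and Nfkb2 encode the NF-κB subunits, and p65 binding at these genes is described here in mouse epidermal cells. They were taken as 5 members of the 21000 protein-coding genes with a curated RefSeq transcript on GRCm38, the assembly that is also called mm10. A peak was assigned to a member when, of all curated transcription start sites, the one nearest to the middle of the peak belonged to that member. All 5 had at least 1 peak in each of the 3 deposited peak lists, with 10 peaks for adult, 8 for aged/IgG control and 9 for aged/anti-IL-17A/F at 10 sites, 8 of which were called in every list. With equal numbers of peaks per list the counts were 7, 8 and 8, so that adult was no longer the highest. The largest peak lay over the start site of Nfkb2 and was among the 14 strongest peaks of every list.

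ChIP–seq with an antibody against p65 sequences the DNA fragments that come down with this protein, and bound regions show up as stacks of fragments, called peaks. Epidermal cells were isolated from C57bl/6J mice, and reads of 4 mice were merged in each condition before peaks were called. The adult mice were 17–25 weeks old and untreated, whereas the aged mice received intraperitoneal control IgG (aged/IgG control) or antibodies against IL-17A and IL-17F (aged/anti-IL-17A/F) for 12 weeks from 73 weeks of age. The series has 6 samples, and the 3 inputs were not analysed here. Because each condition was a single list from pooled mice, there was no spread between animals and no test between conditions could be run. Age and treatment also cannot be told apart between adult and the aged groups, since the adult mice received no antibody. Isolated epidermal cells can include cells of other types. Peak lists carry no expression, so the cell type could not be checked against its markers.

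The lists held 8525 peaks for adult, 4169 for aged/IgG control and 6014 for aged/anti-IL-17A/F. Fragment pileups at the summits, recovered from the fold enrichments and p-values, ran from 34 to 441, and the lowest local background of a list was 13.4, 13.1 and 13.6 fragments in the same order. All peak names in the list labelled adult start with "Treated", which is also the prefix in the list labelled aged/anti-IL-17A/F, whereas those of aged/IgG control start with "Control". The labels are followed here. If the list labelled adult and the other list with its prefix were exchanged, this would leave statements on aged/IgG control and on which sites were called in every list as they are, would swap their comparisons with aged/IgG control, would turn the sign of every ratio between them and exchange their counts and ranks, and would reassign the sites found only in adult.

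NF-κB subunits share a Rel homology domain, through which they pair and bind DNA at κB sites. RelA (p65), RelB and c-Rel carry transactivation domains, whereas p105 and p100, the products of Nfkb1 and Nfkb2, are processed to p50 and p52. Inhibitors of the IκB family hold the dimers in the cytoplasm until upstream kinases release them, and many genes of the pathway, inhibitors included, are known NF-κB targets. In the epidermis the pathway is known for its part in inflammation and keratinocyte homeostasis, and IL-17 acts on keratinocytes partly through it.

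The κB consensus was sought on both strands as 3 G, a purine, any base, A or T, 2 pyrimidines and 2 C. The sequences below hold the κB matches nearest to the summits at sites that were called in every list, although not each window holds the summit itself, since the sites differ in whether they hold a match. They were read from GRCm38 and are written 5′ to 3′ on the strand of the gene, with κB matches in capitals. In order, they are chr19:46304688-46304717 and chr19:46304716-46304745 (plus strand) at the Nfkb2 start site, chr7:19629448-19629563 (minus strand) at the Relb start site, chr3:135691502-135691529 (minus strand) in the 5′ UTR of Nfkb1, chr11:23754412-23754433 (minus strand) in intron 3 of Rel, chr19:5648929-5648960 (plus strand) beyond the 3′ end of Rela, and chr7:19635118-19635147 (minus strand) upstream of Relb.
Nfkb2 start, first match: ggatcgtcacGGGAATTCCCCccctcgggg
Nfkb2 start, second match: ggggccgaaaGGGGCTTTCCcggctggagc
Relb start: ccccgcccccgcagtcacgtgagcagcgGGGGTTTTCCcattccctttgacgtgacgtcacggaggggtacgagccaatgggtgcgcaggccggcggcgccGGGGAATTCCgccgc
Nfkb1 start: tctcgacgtcagtGGGAATTTCCagcca
Rel intron 3: tggtagGGGAGTTCCCCcatca
Rela beyond the 3′ end: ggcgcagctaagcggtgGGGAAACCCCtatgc
Relb upstream: agagccacctGGAAATTCCCctggcctagc

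At the start sites of Rela and Rel no exact match lay within 100 bp of the summit, and their sequences are shown for this contrast. For Rela, chr19:5637433-5637462 (plus strand) is given with the stretch that fits the consensus at 9 of 10 positions in capitals. For Rel, chr11:23771277-23771337 (minus strand), the 61 bases around the aged/anti-IL-17A/F summit, held no match to mark, and the match nearest to the start site is shown with chr11:23771046-23771066.
Rela start: gaacgggaccCGAAATCCCCtaaaaacaga
Rel start, around the summit: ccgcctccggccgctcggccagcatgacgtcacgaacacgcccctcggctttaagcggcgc
Rel start, match nearest to the start site: gcagcGGGAAATCCCCccccc

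Every member was bound in every list, whereas 23.0% of protein-coding genes had a peak in adult, 12.9% in aged/IgG control, 17.4% in aged/anti-IL-17A/F and 11.4% in every list. Peaks in the strongest 10% of a list by fold enrichment belonged to 5 of 5 members for adult, 4 for aged/IgG control and 4 for aged/anti-IL-17A/F, beside 3.24%, 1.58% and 2.30% of protein-coding genes. The exception in both aged lists was Nfkb1. The lists differ in length, and with equal numbers of peaks the Nfkb1 start-site peak stood below the strongest 10% throughout, at percentiles 83.0, 80.5 and 79.8, which left 4 of 5 members for adult as well. The median percentile of the members' strongest peaks was 98.5 for adult, 97.6 for aged/IgG control and 98.9 for aged/anti-IL-17A/F, and that of all bound genes was 58.3, 56.5 and 57.1. Members with at least 2 peaks numbered 4 for adult, 3 for aged/IgG control and 4 for aged/anti-IL-17A/F, against 6.76%, 2.71% and 4.46% of protein-coding genes. With equal numbers of peaks they numbered 2, 3 and 3. Nfkb2 was the member with a single peak throughout.

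**Figure D1:**
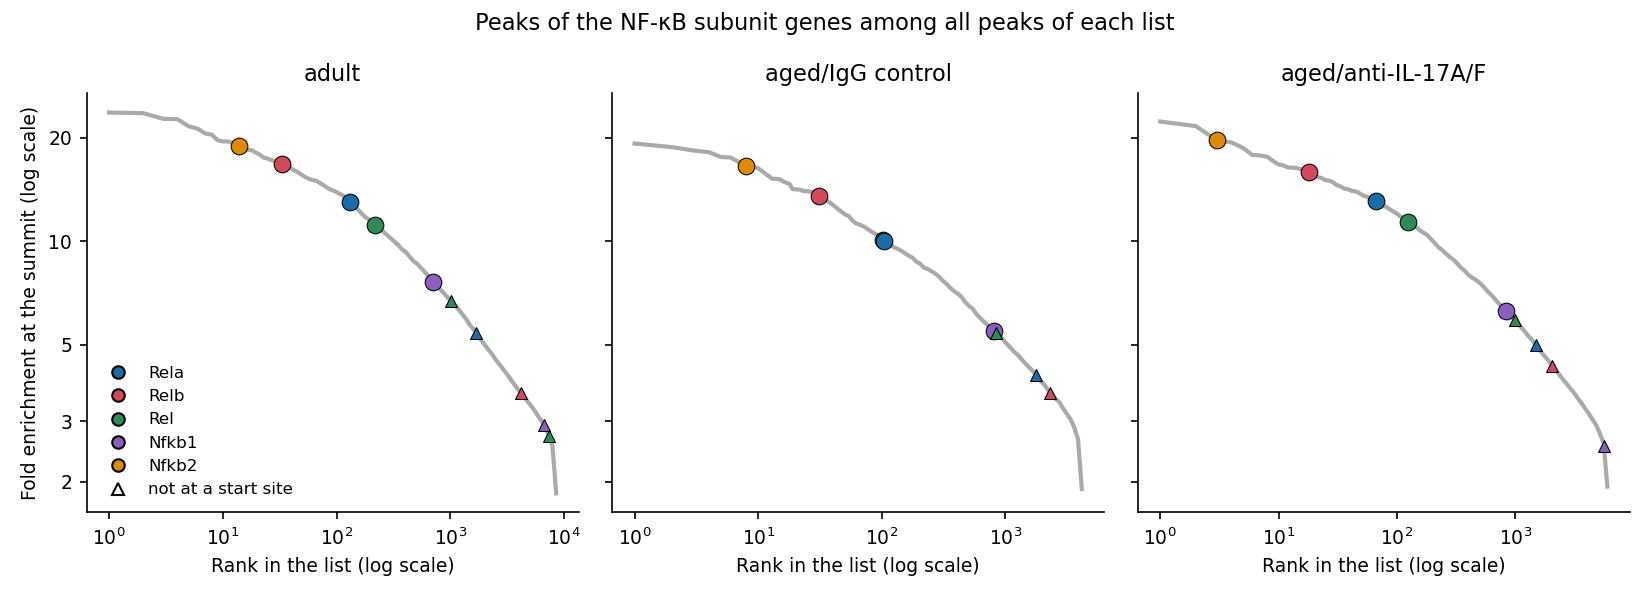
Fold enrichment at the summit (y axis, log scale) against rank (x axis, log scale) for all peaks of each list (grey line), with the peaks of the 5 genes as circles at start sites and triangles elsewhere. Nfkb2 and Relb stand at the top of every list, and the Nfkb1 start-site peak lies lower, at rank 710 for adult, 809 for aged/IgG control and 840 for aged/anti-IL-17A/F.

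Nfkb2 encodes p100, the precursor of p52 in the noncanonical pathway. The fold enrichment over the local background at its start site was 18.9 for adult, 16.5 for aged/IgG control and 19.6 for aged/anti-IL-17A/F, which placed the peak at ranks 14, 8 and 3. Fragments at the summit numbered 386 in adult (95% exact Poisson interval 348–426), 294 (261–330) for aged/IgG control and 374 (337–414) for aged/anti-IL-17A/F. The peak was thus lowest in aged/IgG control by both measures, while its rank stayed among the first of each list. Poisson intervals cover counting error only.

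The Nfkb2 peak spanned chr19:46304093-46306176 for adult, with a width of 2084 bp, and was 1790 bp wide for aged/IgG control and 1802 bp for aged/anti-IL-17A/F. In adult and aged/IgG control no other peak was as wide, and in aged/anti-IL-17A/F 7 peaks, this one included, reached its width. It covered the curated start sites at positions 46304737, 46305695 and 46305930, but the summit stayed at −11, −29 and −9 bp from the first of these in the 3 lists, in an exon of the noncoding gene 4833438C02Rik. Within the peak there were 5 places with a κB match, and in each list this was the only peak with 5 or more, beside 0.434%, 0.576% and 0.499% of peaks with 3 or more. A wider peak has more room for matches. Of the 5, 2 lay within 100 bp of the summit, and the other 3 in intron 1 of the longest transcript. One of these, GGGACTTTCC, was also in the 5′ UTR of the transcript that starts at the second site.

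Relb encodes the subunit that pairs mainly with p52 and p100. Its start-site peak had a fold enrichment of 16.8 for adult, 13.5 for aged/IgG control and 15.8 for aged/anti-IL-17A/F, at ranks 33, 31 and 18. It spanned chr7:19628129-19630034 for adult, around the single curated start site at position 19629438. Pileups were 241 (212–273), 189 (163–218) and 241 (212–273) fragments, with overlapping intervals in all conditions. The summit lay at −115 bp from the start site in adult, with −125 and −120 bp in the aged groups. The κB match nearest to the summit, GGGGTTTTCC, was 22.5 bp away for adult, 32.5 bp for aged/IgG control and 27.5 bp for aged/anti-IL-17A/F. The same 10 bases occurred again in intron 1 of Relb, inside the peak in adult and aged/anti-IL-17A/F, where the peak reached 1906 bp and 1655 bp. In aged/IgG control the peak was 928 bp wide and ended before this place. The second match of the printed window, GGGGAATTCC, also stood at the Nfkb2 start site, where it was read on the opposite strand.

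Rela encodes p65 itself, the protein that was precipitated. At its start site the fold enrichment was 13.0 for adult, 10.03 for aged/IgG control and 13.0 for aged/anti-IL-17A/F, with ranks of 130, 105 and 67. The adult peak spanned chr19:5637051-5638010, around the start site at position 5637541. The pileup was 292 fragments (259–327) for adult, 184 (158–213) for aged/IgG control and 248 (218–281) for aged/anti-IL-17A/F, so that the interval of aged/IgG control lay below both others. The summit moved by only 8 bp between lists, from −78 to −70 bp relative to the start site. No exact κB match was within 100 bp, and the nearest one in the peak was 432–440 bp away in intron 1. The stretch with 1 mismatch is the one in capitals above.

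Rel encodes c-Rel, a subunit best known from lymphoid cells. Its start-site peak had a fold enrichment of 11.2 for adult, 10.1 for aged/IgG control and 11.4 for aged/anti-IL-17A/F, at percentiles 97.4, 97.6 and 98.0. It spanned chr11:23770419-23771712 for adult, with the start site at position 23770969. Pileups were 228 (199–260), 141 (119–166) and 173 (148–201) fragments, and the interval of adult did not overlap that of aged/IgG control. The local background differed as well, at 19.5 fragments in adult against 13.1 in aged/IgG control, and the fold enrichments accordingly differed less than the pileups. The summit was at −344, −293 and −338 bp from the start site, farther upstream than at any other member. Its κB matches were not under the summit, and which one was nearer depended on the list. In adult and aged/anti-IL-17A/F it was GGGGGTCCCC, 223 and 229 bp upstream of the summit, and in aged/IgG control GGGAAATCCC, 206 bp downstream of it.

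Nfkb1 encodes p105, the precursor of p50. Its start-site peak was the weakest of the 5, with a fold enrichment of 7.63 for adult, 5.47 for aged/IgG control and 6.25 for aged/anti-IL-17A/F, at percentiles 91.7, 80.5 and 86.0. The adult peak spanned chr3:135691241-135691820, with the start site at position 135691547. Pileups were 109 (89.5–131), 76 (59.9–95.1) and 90 (72.4–111) fragments, with overlapping intervals. The summit lay in the 5′ UTR, 28, 42 and 56 bp downstream of the start site, and the match GGGAATTTCC was 7.5, 6.5 and 20.5 bp from it. The same 10 bases formed the match upstream of Relb, where they were read on the opposite strand of the gene. At 470–580 bp, this was also the narrowest start-site peak of the members, and its GC content of 75.0% to 77.4% the highest.

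**Figure D2:**
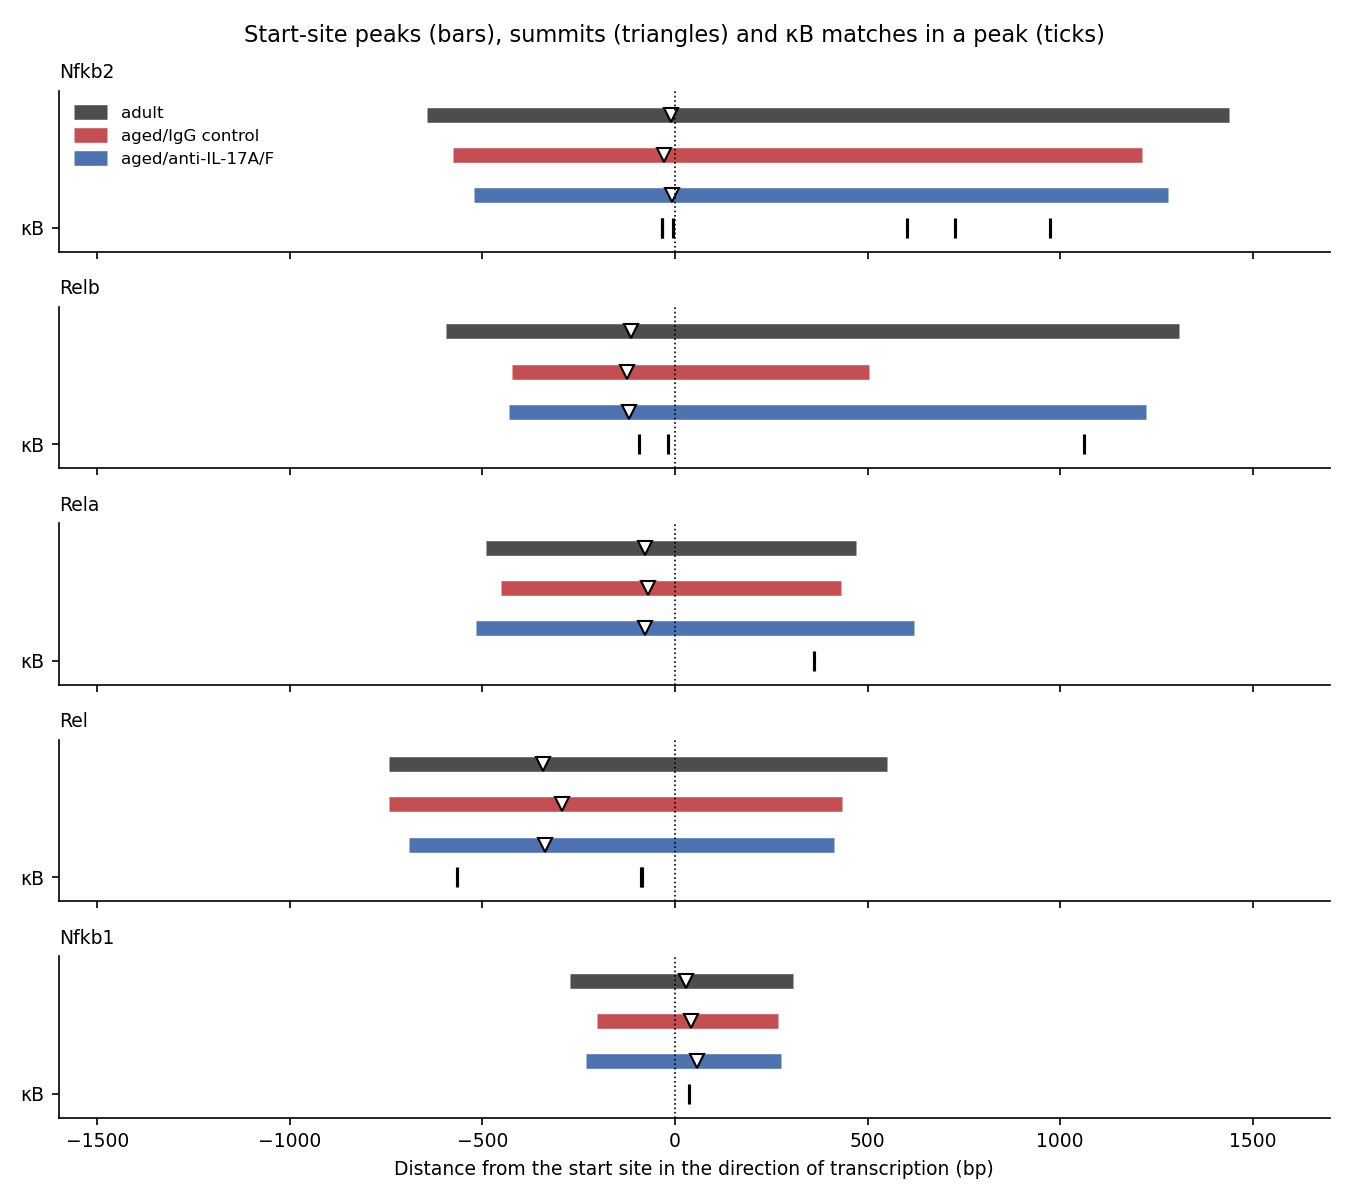
Extent of the start-site peaks in the 3 conditions (bars), summits (triangles) and κB matches in any of the peaks (ticks), by distance from the start site in bp, with transcription to the right. The summits of Nfkb2, Relb and Nfkb1 lie close to a tick, whereas those of Rela and Rel do not.

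The 5 further sites had a lower fold enrichment than the start-site peaks in each list. In intron 3 of Rel (chr11:23754172-23754705 for adult), about 16.5 kb into the gene, the fold enrichment was 6.71 for adult, 5.40 for aged/IgG control and 5.89 for aged/anti-IL-17A/F, and the κB match was 0.5, 24.5 and 7.5 bp from the summit. With a GC content of 37.8% to 38.0% and no CpG, this site differed in composition from all start-site peaks of the members, which were at 60.7% or more. Around 11.4 kb downstream of the Rela start site, beyond the 3′ end of the gene (chr19:5648689-5649234 for adult), the fold enrichment was 5.40, 4.07 and 4.99, with a pileup of 131 (110–155), 67 (51.9–85.1) and 91 (73.3–112) fragments. The interval of aged/IgG control lay below that of adult here. The pileup was above that of the Nfkb1 start site in adult (109) and aged/anti-IL-17A/F (90), but below it in aged/IgG control (76). The κB match was 11.5, 2.5 and 30.5 bp from the summit.

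A site about 5.7 kb upstream of Relb (chr7:19634950-19635602 for adult) lay in intron 11 of Clptm1, so that the rule joined it to Relb although it was inside another gene. It had a fold enrichment of 3.61, 3.62 and 4.33, at percentiles 50.7, 43.8 and 65.5, with overlapping pileup intervals from 50 fragments for aged/IgG control to 62 for aged/anti-IL-17A/F. The remaining sites were not called in every list. The one 38 kb upstream of Nfkb1 (chr3:135729492-135729815 for adult) had a fold enrichment of 2.91 in adult and 2.53 in aged/anti-IL-17A/F and no peak in aged/IgG control, and the one in intron 5 of Rel (chr11:23746197-23746519) had 2.71 in adult and was called in no other list. Both held no κB match within 100 bp of the summit. Where called, they stood at percentiles 21.8, 5.76 and 13.0, with 48, 57 and 52 fragments at the summit. Fragments at these places in the lists without a call are not known from peak lists. The Rel intron 5 peak held the only AP-1 match (TGANTCA) within 100 bp of a summit of all member peaks, beside 13.2%, 14.1% and 14.4% of all peaks and 7.81% of 300-base RefSeq promoters.

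**Figure D3:**
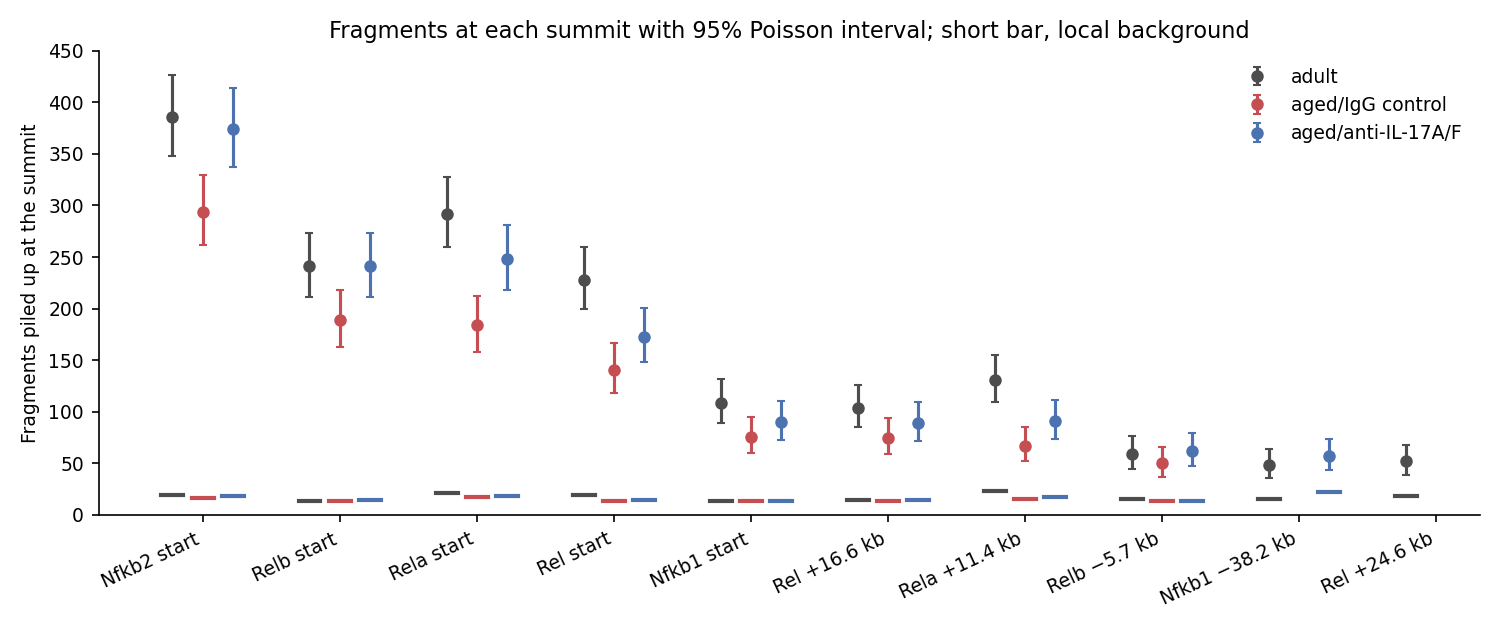
Fragments piled up at the summit (y axis) for each site and condition, with sites away from the start named by their distance in kb, with 95% exact Poisson intervals and the local background as short bars. At all 8 sites called in every list the point of aged/IgG control is the lowest, and no interval of adult lies apart from that of aged/anti-IL-17A/F.

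Between conditions, the fold enrichment of member sites was lowest in aged/IgG control at 7 of 8 sites called in every list, beside 58.2% of the 3502 sites of this kind. The exception was the site upstream of Relb, where adult was lower by 0.01 on the log2 scale. Against adult, the median log2 ratio in aged/IgG control was −0.31 over the member sites, from −0.48 at the Nfkb1 start site to 0.01 upstream of Relb, and −0.30 over all 3879 overlapping peaks. The members thus had ratios close to those of the whole list, and 7 of 8 were lower beside 78.5% of all. Among the 853 overlapping peaks in the strongest 10% of the adult list, chosen by the adult value that also enters the ratio, the median was −0.51 and 93.8% were lower, whereas the median of the 5 member start sites was −0.31. Division by the median of the sites in every list, which adds 0.33 to every log2 ratio here, left a median of 0.021 and a range from −0.14 to 0.34, with 3 of 8 lower beside 46.6% of all. Relative to the list, no common direction was left.

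From aged/IgG control to aged/anti-IL-17A/F the member sites had a median log2 ratio of 0.24, from 0.12 in intron 3 of Rel to 0.38 at the Rela start site. All 8 were higher in aged/anti-IL-17A/F, whereas 33.4% of the 3612 overlapping peaks were lower and the median over all was 0.14. Among the 418 overlapping peaks in the strongest 10% of the aged/IgG control list, the median was 0.09 and 38.3% were lower, and the median of the 5 member start sites was 0.23. With the same division the median of the members was 0.077, with 1 of 8 lower beside 52.3% of all. Both comparisons share the aged/IgG control list, so they are not independent. Against adult, aged/anti-IL-17A/F had a median of −0.08 over 9 member sites and of −0.15 over 5146 overlapping peaks, with start-site ratios from −0.29 at Nfkb1 to 0.06 at Nfkb2. The 853 strong peaks had a median of −0.31 here, whereas the median of the 5 member start sites was 0.0007. After the same division, which adds 0.17 to every ratio, the median of the members was 0.088, with 3 of 9 lower beside 47.4% of all.

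No member site passed a 1.5-fold ratio in any comparison. Of all overlapping peaks, 23.3% passed it between aged/IgG control and adult, 12.5% between aged/anti-IL-17A/F and aged/IgG control, and 14.0% between aged/anti-IL-17A/F and adult. The Poisson intervals of the pileups did not overlap at 4 of 8 member sites between aged/IgG control and adult (23.7% of all overlapping peaks), at 2 of 8 between aged/anti-IL-17A/F and aged/IgG control (6.62%) and at 0 of 9 between aged/anti-IL-17A/F and adult (2.51%). Those 4 were the start sites of Nfkb2, Rela and Rel and the site beyond the 3′ end of Rela, and those 2 were the start sites of Nfkb2 and Rela. Among overlapping peaks in the strongest 10% of the first list of each pair (adult, aged/IgG control and adult in this order), the intervals did not overlap in 56.7%, 15.3% and 6.21%.

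**Figure D4:**
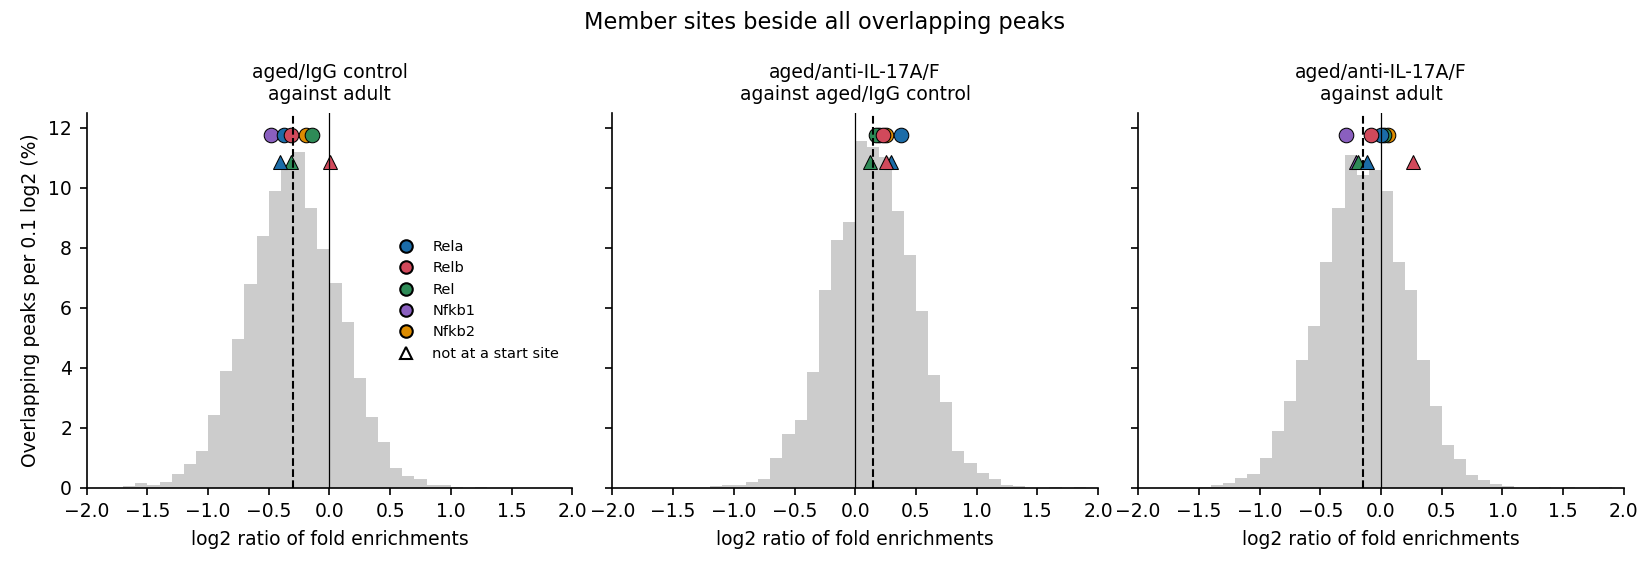
Distribution of the log2 ratio of fold enrichments over all overlapping peaks (grey bars, % of peaks per 0.1 log2, median as dashed line), with member start sites as circles and other member sites as triangles. In the comparison of aged/IgG control with adult the members scatter around the median of −0.30, and in that of aged/anti-IL-17A/F with aged/IgG control all lie above 0, from 0.12 to 0.38.

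A κB match within 100 bp of the summit was present in 6 of 10 member peaks for adult, 6 of 8 for aged/IgG control and 6 of 9 for aged/anti-IL-17A/F. Of all peaks, 28.5% (95% Wilson interval 27.5–29.4), 37.8% (36.3–39.2) and 34.9% (33.7–36.1) held one, and of the strongest 10% of peaks 61.0%, 62.9% and 62.7%. Of all 300-base RefSeq promoters, 4.50% held one, and Rela, Rel and Nfkb2 were the members with an entry there. The member peaks with a match were the same 6 sites in every list, namely the start sites of Nfkb2, Relb and Nfkb1, Rel intron 3, the site beyond Rela and the site upstream of Relb. At this last site the match was 20.5 bp from the summit for adult, 16.5 bp for aged/IgG control and 89.5 bp for aged/anti-IL-17A/F. Within 50 bp of the summit the count for aged/anti-IL-17A/F was therefore 5. With 1 mismatch allowed, 8 member peaks in each list held a match, beside 69.4%, 76.1% and 74.4% of all peaks and 91.0%, 90.9% and 91.8% of the strongest 10%.

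The sequences of Rel and Relb held another shared element. The 8 bases TGACGTCA, the cAMP response element (CRE) of CREB and ATF factors, occurred within 100 bp of the summit at the start sites of Rel and Relb in every list and in no other member peak. Of start-site peaks, meaning those with their middle within 1 kb of a start site, 2.23% held it for adult, 2.32% for aged/IgG control and 2.12% for aged/anti-IL-17A/F, and of all 300-base promoters 1.79%. It was sought after the sequences had been seen. GC boxes (GGGCGG) were present in 6 of 10, 5 of 8 and 5 of 9 member peaks, beside 25.9%, 23.0% and 23.4% of all peaks and 35.6% of promoters. These groups are unlike, since each member had a start-site peak in every list. Start-site peaks made up only 36.9%, 33.1% and 33.7% of all peaks, and their share with a GC box was not counted. The promoters are also longer than the window around a summit. A match is a description of the sequence and not a measured binding site.

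Within 50 kb of a member's start site there were 13 peaks for adult, 10 for aged/IgG control and 10 for aged/anti-IL-17A/F. All 5 members had such a peak in every list, beside 43.4%, 27.5% and 35.0% of protein-coding genes. Peaks nearest to another gene were few. Clptm1, the neighbour of Relb, had a peak at its own start site with a fold enrichment of 3.97 for adult, 3.27 for aged/IgG control and 3.48 for aged/anti-IL-17A/F. Zfp296, also near Relb, had 2.65 in adult and 2.99 in aged/IgG control, and Sipa1, near Rela, had 2.87 in adult. Around Rel, Nfkb1 and Nfkb2 all peaks within 50 kb were nearest to these genes themselves.

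Of 26 further genes of the pathway, 20 had a peak for adult, 15 for aged/IgG control and 17 for aged/anti-IL-17A/F, 15 of them in every list. Of all protein-coding genes, 23.0%, 12.9% and 17.4% had one and 11.4% in every list, so that the number also fell from adult to aged/IgG control over all genes. Inhibitors and feedback regulators, a list with the IκB genes, most of which restrain NF-κB, were bound in 9 of 9 cases in each list. Kinases and adaptors, which act upstream of the dimers, were bound in 8 of 14 for adult, 6 for aged/IgG control and 7 for aged/anti-IL-17A/F. On the side of the IL-17 receptor, the 3 genes Il17ra, Il17rc and Traf3ip2 had a peak for adult, none had one for aged/IgG control, and Il17ra had one in aged/anti-IL-17A/F. Genes called in some lists were otherwise Tab3 and Traf6 in adult and Ikbkb, a catalytic subunit of the IκB kinase, in aged/anti-IL-17A/F. Those peaks lay between percentiles 3.18 and 40.1 of their lists, in the weaker part of each. With equal numbers of peaks per list, 15 pathway genes had a peak in each list, 9 of the inhibitors and 6 of the kinases and adaptors, and none of the 3 genes on the side of the IL-17 receptor had one in any list.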

How the data were processed

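p65 ChIP–seq was analysed in 3 of 6 samples, and the 3 inputs were not used here. The authors used Trimmomatic 0.36 for read trimming and BWA for alignment to mm10, then they merged and deduplicated the alignments of 4 mice with SAMtools, downsampled the pools to equal numbers of reads, and called peaks with MACS2 (q value 0.01, fixed fragment extension). Merging removes the spread between mice, and whether inputs entered the calling is not given in the sources used here. The deposited lists give a score, the fold enrichment (a ratio over local background with a pseudocount of 1), the −log10 p-value, the −log10 q-value and the summit of each peak, as the authors' peak caller wrote them.

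Peaks were assigned to the nearest curated RefSeq start site of GRCm38, measured from their middle. Pileup and local background at each summit were solved from the fold enrichment and the −log10 p-value under the Poisson distribution. Pileups came out whole, within 0.1, in 100.0% of peaks, so that intervals could be given for counting error. Peaks of different lists were matched by an overlap of 1 bp, and ratios past 1.5-fold were counted. No test was run between conditions. The members, the pathway list and the rules were chosen with earlier results of these data known. Named were the members, genes nearest to peaks within 50 kb, for each member the 3 genes with the most similar percentiles, and pathway genes called in some lists. The CRE search, the count with 1 mismatch, and equal numbers of peaks for pathway genes and for members with several peaks, the rescaled counts of lower sites and the intervals of strong peaks were added after the data were seen, and genes just outside 50 kb were picked once their values were known. The steps were tested on simulated data. Alternatives concerned the annotation, the q-value, equal numbers of peaks, the overlap, the motif window, the distance and the scaling. Python 3.11.15, numpy 2.4.6, pandas 2.3.3, scipy 1.17.1, pysam 0.24.0, matplotlib 3.10.9 and bedtools 2.31.1 were used.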

Additional observations from a re-analysis of the deposited data

How the results depend on the processing

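No replicate exists within a condition, so none could be left out. No paired analysis was possible because each condition is 1 list from pooled mice. All 5 members kept a peak in every list under each alternative of annotation, threshold, number of peaks and distance, and the count of sites in every list stayed at 7 or 8. With equal numbers of peaks, 2 members had at least 2 peaks in adult, and genes of the IL-17 receptor side with a peak went to 0 for adult and 0 for aged/anti-IL-17A/F. With peaks within 10 kb, member peaks numbered 6 in each list, and peaks near members fell to 6, 6 and 6. Within 100 kb the peaks near members rose to 26, 17 and 21 (adult, then aged/IgG control, then aged/anti-IL-17A/F).

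Ranked by −log10 q, the median percentile of the strongest peaks was 99.3, 98.2 and 99.2. With equal numbers of peaks it was 96.9 in adult and 98.4 in aged/anti-IL-17A/F, and among peaks within 1 kb of a start site 98.0 in aged/IgG control. The median log2 ratio of member sites, with −log10 q in place of fold enrichment, was −0.78 for aged/IgG control against adult and 0.47 for aged/anti-IL-17A/F against aged/IgG control, beside −0.80 and 0.46 over all overlapping peaks. For aged/anti-IL-17A/F against adult it was −0.23, beside −0.34, within 1 SD of the member sites (0.17) from the reported −0.08. Divided by the median of sites in every list, the ratios were 0.021 for aged/IgG control against adult and 0.088 for aged/anti-IL-17A/F against adult, both with the sign turned, and 0.077 for aged/anti-IL-17A/F against aged/IgG control. The division removes the shift of the whole list, and whether that shift is biological or comes from the immunoprecipitation was not tested. Without the pseudocount, pileups were whole in 19.5%, 17.3% and 18.4% of peaks. The remaining alternatives kept counts within 1.5 times and median percentiles within the Wilson interval of the reported value. Of 45 percentiles of single members, 21 stayed within the Wilson interval of the reported value and 24 lay outside it.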

Other observations

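By the percentiles of their strongest peaks over the 3 lists, among 2387 genes bound in every list, those most like Nfkb2 were Nfkbib, Gm826 and Nfkbia, with summed differences of 0.23, 0.25 and 0.28 percentile points. Nfkbib and Nfkbia encode the inhibitors IκBβ and IκBα, and Nfkbib held the strongest peak in adult and aged/anti-IL-17A/F, Nfkbia that in aged/IgG control. Those most like Relb were Pnrc1, Tcf7l2 and Bcl10, which encodes an adaptor of NF-κB activation. For Rela they were Ptp4a2, Mcf2l and Ube2d3, for Rel Ccdc71, Tfe3 and Tcf7l1, and for Nfkb1 Gm266, Maff and Abi3bp, the last with a summed difference of 2.97. Likeness in 3 percentiles is a description, and at the top of a list many genes have similar percentiles.

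Other peaks lay just beyond 50 kb of a member. At the start site of Map3k11, a kinase gene about 52 kb from Rela, the fold enrichment was 11.2 for adult, 7.94 for aged/IgG control and 7.81 for aged/anti-IL-17A/F. At that of Mfsd13a, 51 kb from Nfkb2, it was 6.48, 4.27 and 4.64.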
